A study of Mus musculus with 8 samples.

Results

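Mouse embryonic fibroblasts (MEF) were compared with neural precursor cells (NPC). The comparison takes the arrays titled as wild-type MEF (2 arrays) and wild-type NPC (3 arrays), 5 of the 8 arrays of the study. The other 3 are wild-type V6.5 embryonic stem (ES) cells. They give ES levels beside the comparison and share the estimate of the spread. They were also included in the quantile normalization and in the choice of each gene's brightest probe set. Of 45037 non-control probe sets, 34945 were listed with a single gene, and they gave 18193 genes, each read from its brightest probe set. The MEF were primary cells grown in DMEM with fetal bovine serum. The NPC were derived in culture from ES cells, through embryoid bodies and selection in ITSFn medium, and were then kept in FGF2 and EGF2, as the labels spell them. Cell type and medium differ together in this design, so the effect of serum and that of the growth factors cannot be told apart from that of the cell type. No label states separate cultures for the arrays within a group, so a p-value here reflects array-to-array spread alone, possibly technical.

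Fibroblasts are the connective tissue cells that secrete fibrillar collagen, cross-link it outside the cell and pull on it through actin and myosin fibres anchored in focal adhesions. Neural precursors kept in FGF and EGF are dividing cells of the radial glia type, marked by Sox2, nestin and the glial fatty acid binding protein Fabp7, and able to give neurons, astrocytes and oligodendrocytes. Serum carries many growth factors and switches on the serum response factor (SRF), which drives genes of the contractile apparatus. FGF signals through the ERK kinases, whose feedback inhibitors (Sprouty, Spred and dual-specificity phosphatases) rise with pathway activity.

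Values are quantile-normalized log2(intensity + 16), called log2 intensity below, and a fold on this scale understates the change of dim genes. The floor of the scale is near 4, and 25% of the genes had a mean over MEF and NPC below 4.65, 50% below 6.03 and 90% below 9.50. Correlations over all non-control probe sets were 0.992 between the MEF arrays and 0.967 to 0.987 between NPC arrays. Between the groups they were 0.864 to 0.872. NPC 1 stood apart from NPC 2 and NPC 3: 349 genes (1.92%) were higher on it by at least 1 log2 unit than on both others and 298 (1.64%) lower. The MEF arrays were brighter as deposited, with 2% trimmed means of 232 against 119 to 128 for NPC. At the deposited scaling the median difference over all genes was 0.43, against -0.01 after quantile normalization. What sets the brightness was not tested. In such bulk RNA, fewer cells of a type and less RNA per cell cannot be told apart.

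A gene counted as called where limma's adjusted p lay under 0.05 and the groups differed by 1 log2 unit or more. Changes of call given below are among alternatives that kept this threshold. By this rule 3359 genes (18.5% of those tested) were called, 1912 (10.5%) higher in MEF and 1447 (7.95%) lower. The split depended on the scaling: 56.9% of the calls were higher in MEF here, 53.1% when scaled to a trimmed mean, 74.1% after median centring and 87.5% in the values as deposited. Large differences were mostly gains in MEF: among calls of 4-fold or more 862 were gains and 385 losses, and among those of 32-fold or more 102 were gains and 27 losses. MEF and NPC arrays did not overlap for 10545 genes (58%), with MEF above NPC for 28.3% of all genes and below for 29.7%. The plot of group means shows the genes with the greatest gains on the left edge, near the floor in NPC.

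**Figure D1:**
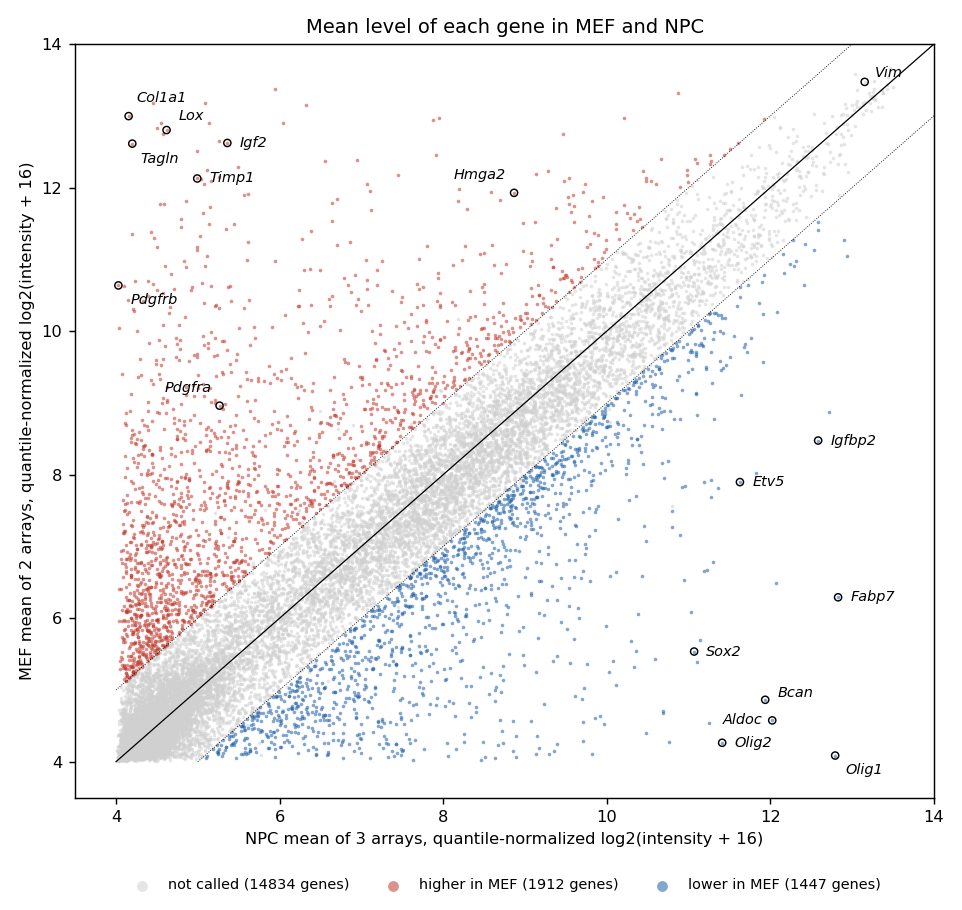
Mean log2 intensity of each of 18193 genes in NPC (x axis, 3 arrays) and MEF (y axis, 2 arrays), with the 1912 genes higher in MEF in red, the 1447 lower in blue and the others in grey; the solid line marks equal levels and the dotted lines a difference of 1. Olig1 lies at the lower right, at 4.08 and 4.10 on the MEF arrays, and Vim lies at the upper right, high in both groups.

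The marker genes were set against the labelled cell types. All 10 fibroblast markers were higher in MEF and all 9 measured neural precursor markers were lower, with weak calls for Twist1 and Nes. Nes, which encodes nestin, was at 8.64 and 8.70 in MEF and 9.57 to 9.86 in NPC (-1.03), and was not called after median centring (-0.46), as deposited (-0.11), when scaled to a trimmed mean (-0.99), with a pseudocount of 64 (-0.95), with averaged probe sets (-0.64) or without NPC 2 (-0.95). Twist1, a mesenchymal bHLH factor (1.18), lost its call with a pseudocount of 64 (0.90), with MEF and NPC fitted alone, and without NPC 3 (0.91), MEF 1 (1.26) or MEF 2 (1.07). Among the fibroblast markers, Col1a1, the main chain of type I collagen, was at 12.97 and 13.02 on the MEF arrays and at 4.12, 4.24 and 4.10 on NPC 1 to NPC 3. It was near the floor on every NPC array and at 6.15 ± 0.21 (SD, n = 3) in ES cells, so that NPC were lower than ES cells by 2.00 log2 units and MEF higher by 6.84. Olig1, a bHLH factor of the oligodendrocyte lineage, was at 4.08 and 4.10 on the MEF arrays and at 12.69, 12.86 and 12.83 on the NPC arrays. The 3 ES markers Pou5f1, Nanog and Zfp42 were at 4.04 to 4.89 on all MEF and NPC arrays and not called, except Nanog with a pseudocount of 1 (2.69), against 11.55 to 12.01 on average in ES cells.

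The greatest differences were ranked among called genes whose MEF and NPC arrays do not overlap. The 15 greatest gains in MEF were those of Col1a1 (8.84), Ccn2, Tagln, S100a6, Col5a2, Lox, Bgn, Col1a2, Thbs1, Tpm2, Acta2, Col3a1, Igf2, Postn and Anxa3 (7.18). All but S100a6, Igf2 and Anxa3 encode matrix, matrix-modifying or contractile proteins. The 15 greatest losses ran from Olig1 (-8.71) through Aldoc, Olig2, Bcan, Ncan, Fabp7, Pantr1, Gpm6a, Kcnd3, Bcas1, Ptgds, Wscd1, Gpm6b and Sox2 to Pou3f1 (-5.44). Of the ES means of the 15 genes that were lowest in MEF, that of Sox2 (12.05) was above the NPC level. Those between the groups included Olig1 (9.29), Aldoc (9.75), Olig2 (7.78) and Pou3f1 (7.64). Bcas1 (6.37) and Bcan (5.65) were also between, nearer to MEF. Fabp7 (4.22) and Gpm6a (4.13) were near the floor in ES cells. The ES means of Ccn2 (9.83), Tagln (9.49), Acta2 (10.28) and S100a6 (9.26) likewise lay between MEF and NPC, while those of Postn (5.20) and Col3a1 (5.66) were close to NPC.

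**Figure D2:**
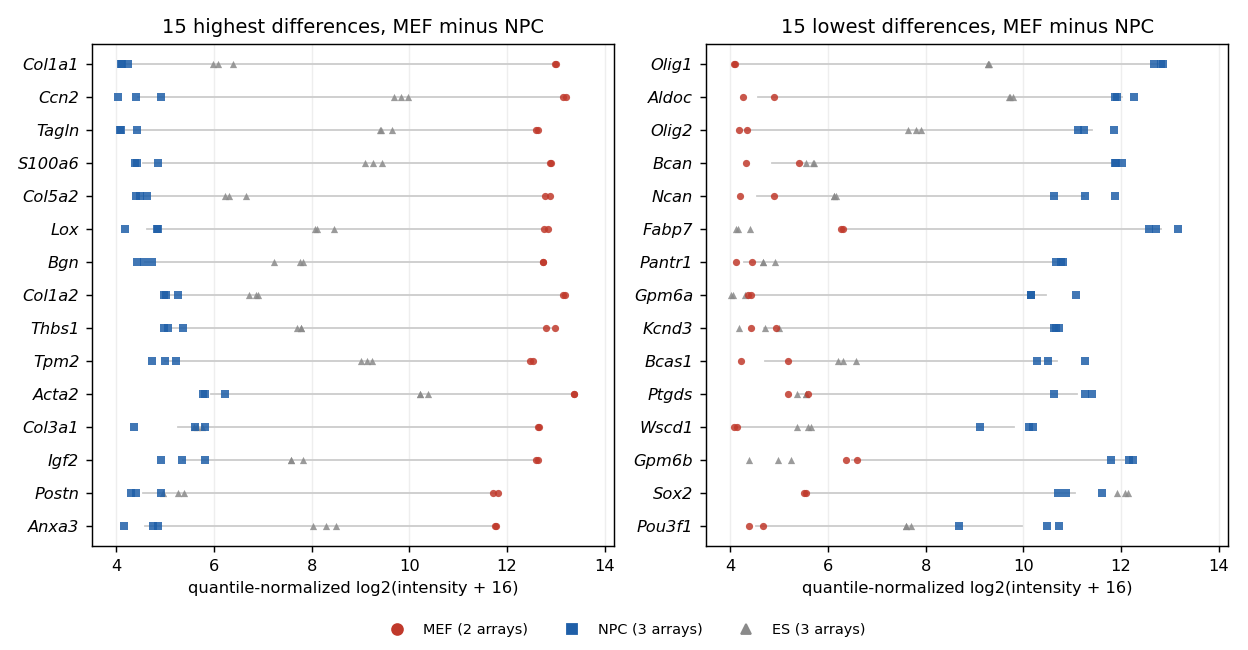
Log2 intensity on every array (x axis) of the 15 genes with the highest (left) and the 15 with the lowest (right) difference between MEF and NPC; red circles are MEF arrays, blue squares NPC arrays, grey triangles ES arrays and the grey line joins the MEF and NPC means. The 30 genes were picked among called genes whose MEF and NPC arrays do not overlap. For Pou3f1 the array NPC 1 (8.68) lies below the other NPC arrays.

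Many collagen genes were higher in MEF. Of 36 measured collagen chains 22 were higher in MEF and none was lower (median 2.27, against -0.01 over all genes). Of 9 fibrillar chains 8 were higher. Col1a2, the second chain of type I collagen, was at 13.16 and 13.19 on the MEF arrays and 5.02, 5.26 and 4.97 on the NPC arrays, 272-fold higher in MEF. Col3a1, of the distensible type III fibrils, was at 12.63 and 12.65 against 4.36, 5.60 and 5.82 (167-fold, limma adjusted p = 6.43e-07), with NPC 1 the lowest array. The type VI chains, which form beaded filaments around cells, were higher in 3 of 3 cases. Col2a1, the fibrillar chain of cartilage, was at 7.97 and 8.02 against 4.12 to 4.78, also higher, at a lower level. Col9a1, a fibril-associated chain of cartilage, was not called: it was at 6.75 and 6.83 on the MEF arrays, 6.78 and 6.87 on NPC 2 and NPC 3, and 5.17 on NPC 1. As deposited it differed by 1.21 and was called.

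The enzymes that modify and cross-link collagen moved with it. Of 24 processing genes 18 were higher in MEF and none lower, and all 4 cross-linking enzymes were higher. Lox, the lysyl oxidase that starts covalent cross-links, was at 12.84 and 12.76 on the MEF arrays and at 4.84, 4.84 and 4.17 on the NPC arrays (8.18 ± 0.21 SE, 291-fold, limma adjusted p = 1.75e-08). The related Loxl1 was 109-fold and Loxl3 17.7-fold higher. P4ha2, a prolyl hydroxylase subunit needed for a stable triple helix, was at 9.57 and 9.52 against 4.03 to 4.75. Ppib, a general folding enzyme of the endoplasmic reticulum, was high in both groups, at 12.23 and 12.24 in MEF and 12.26 to 12.36 in NPC, and not called.

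Elastic fibre genes were higher in MEF in 11 of 15 cases, small leucine-rich proteoglycans in 6 of 12 and matricellular genes in 15 of 20. Fbln5, which guides elastin assembly, was 79.5-fold higher, and the microfibril genes Mfap5 and Ltbp2 were each 33.8-fold higher. Fbln2 varied among the NPC arrays, at 9.22 on NPC 1 and 5.27 and 5.61 on NPC 2 and NPC 3, and was at 11.81 and 11.88 in MEF. Bgn, which encodes biglycan, stood at 12.74 on each MEF array and at 4.43 to 4.74 in NPC, while Dcn, which encodes decorin, reached 7.18 and 7.14 against 4.21 to 4.79, a 6.48-fold difference. The matricellular genes Ccn2 (423-fold), Thbs1 (217-fold) and Postn (150-fold) were near the top of the array in MEF. Against the list, Sparcl1, a glial secreted protein, was at 5.58 and 5.82 in MEF and 11.02 to 11.26 in NPC, 43.2-fold lower in MEF, and Smoc1, a calcium-binding matrix protein, was 5.99-fold lower.

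Neural matrix genes were mixed, with 7 of 19 higher in MEF and 4 lower. The lecticans Bcan and Ncan, chondroitin sulfate proteoglycans of brain, were lower in MEF by 7.07 and 6.71 log2 units, with NPC arrays at 11.89 to 12.02 and 10.63 to 11.88 respectively. Ptprz1, a proteoglycan receptor phosphatase of glial precursors, was at 7.62 and 7.75 on the MEF arrays and 10.97 to 11.86 on the NPC arrays, 12.1-fold lower in MEF. The other lecticans did not follow. Vcan, made by many tissues, was at 9.54 and 9.61 in MEF and 9.30 to 9.53 in NPC and was called only as deposited (1.06). Acan, the cartilage lectican, was 3.34-fold higher in MEF, a call lost with a pseudocount of 64 (0.90). Has2, a hyaluronan synthase, was 53.7-fold and the hyaluronan receptor Cd44 4.71-fold higher in MEF.

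Adhesion receptors and basement membrane genes were mixed. Of 32 integrin, laminin and linker genes 15 were higher in MEF and 4 lower. Fn1, which encodes fibronectin, was at 12.90 and 12.98 in MEF and 7.67 to 8.02 in NPC (33.6-fold). The linker Nid1 was 72.6-fold, the laminin chain Lama4 15.6-fold and the integrin chain Itgb5 17.3-fold higher. Itgb8, an integrin that activates latent TGF-beta and is made by radial glia, was lower in MEF by 2.25, at 6.19 and 6.21 with every NPC array above 8 and at most 8.88. Itga8, a fibronectin-binding chain, was at 9.35 and 9.31 on NPC 2 and NPC 3, at 5.92 on NPC 1 and at 7.43 and 7.47 in MEF, and was not called, but was without NPC 1 (-1.89) and with array weights (-1.60). Cadherins differed by member. Cdh11, the mesenchymal cadherin, was at 11.99 and 12.09 in MEF and 4.74 to 5.43 in NPC (125-fold), and Cdh4, a neural cadherin, was at 5.20 and 4.95 in MEF and 10.01 to 10.29 in NPC (32.8-fold lower). Cdh2, which encodes N-cadherin, was high in both groups, at 10.05 and 10.13 against 9.18 to 9.64 (0.75), and was called after median centring (1.33) and as deposited (1.67). Of 25 cadherin and protocadherin genes 5 were higher and 9 lower. At the deposited scaling 9 were higher and 4 lower, and without NPC 1 6 were higher and 7 lower.

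Of 32 matrix proteases and inhibitors 21 were higher in MEF and 2 lower. Mmp14, the membrane-bound collagenase, was at 11.09 and 11.18 in MEF and 5.71, 5.11 and 4.14 in NPC (70.8-fold), and Plaur, the urokinase receptor, was 26.2-fold higher. The tissue inhibitors divided by member. Timp1 was at 12.11 and 12.14 in MEF and 4.71 to 5.46 in NPC, 140-fold higher, whereas Timp4 was at 4.43 and 4.28 in MEF and 8.56 to 9.51 in NPC, 23.1-fold lower. Adamts9, an aggrecanase-type protease, was also lower in MEF, by 3.12, with NPC 1 at 8.06 and NPC 2 and NPC 3 at 10.14 and 10.42.

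Contractile genes were called nearly throughout. Of 37 contractile and focal adhesion genes 32 were higher in MEF and none was lower, including 10 of 10 smooth muscle type genes. Acta2, smooth muscle actin, was at 13.37 on each MEF array and at 6.23, 5.78 and 5.82 in NPC (171-fold), and Tagln, which encodes the actin-binding protein transgelin, was at 12.60 and 12.63 against 4.07 to 4.42 (341-fold, limma adjusted p = 2.31e-09). The tropomyosin Tpm2 was 183-fold and Myl9, the regulatory light chain of non-muscle and smooth muscle myosin, 140-fold higher. General actin-binding genes differed less: Tpm3 (0.85) and Cnn3 (0.49) were high in both groups and not called, but Tpm3 was after median centring (1.28), as deposited (1.63) and with averaged probe sets (1.06), and Cnn3 as deposited (1.13). In the list of mechanical signalling genes all 10 targets of SRF or of the YAP coactivator were higher in MEF. Ankrd1 was 51.4-fold, Ptx3 68.1-fold and Fhl2 26.0-fold higher. The coactivators themselves did not differ by the rule: Yap1 was at 10.25 and 10.23 in MEF and 9.86 to 9.95 in NPC, and its relative Wwtr1 at 10.03 and 10.04 against 9.56 to 9.66. As deposited both were called (1.27 and 1.36), and Wwtr1 also after median centring (1.02).

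SRF binds the CArG box, which is CC, then 6 bases of A or T, then GG, and which reads as the same pattern on both strands. RefSeq promoter windows of 300 bases (GRCm38.p6, 250 bases before the start and 50 after) were at hand for 32 of the 37 contractile genes. Matches were present in 4 of the 32, in Myl9, Cnn2, Vcl and Myl6, and in 1.63% of all 32851 windows. The count of 4 is per gene and the share is per window, so they are not in the same unit. The box of Myl6 begins 50 bases before the window's start site. The stretch before the outermost annotated start of Myl6 does not extend past this box and is not shown. The stretches before the start are shown for the other 3, all of which were called. They are written 5′ to 3′, with the CArG box in capitals, and end before the outermost annotated start of the gene.
Myl9, chr2:156775214-156775407, plus strand: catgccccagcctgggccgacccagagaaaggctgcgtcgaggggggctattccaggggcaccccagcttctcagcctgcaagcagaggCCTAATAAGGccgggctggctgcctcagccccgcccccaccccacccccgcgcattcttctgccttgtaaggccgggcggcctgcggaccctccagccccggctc
Cnn2, chr10:79988350-79988599, plus strand: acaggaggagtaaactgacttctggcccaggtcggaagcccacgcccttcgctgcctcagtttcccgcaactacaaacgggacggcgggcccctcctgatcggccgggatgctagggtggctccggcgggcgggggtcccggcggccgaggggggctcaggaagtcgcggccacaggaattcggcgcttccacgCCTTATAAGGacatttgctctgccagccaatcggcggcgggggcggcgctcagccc
Vcl, chr14:20929148-20929382, plus strand: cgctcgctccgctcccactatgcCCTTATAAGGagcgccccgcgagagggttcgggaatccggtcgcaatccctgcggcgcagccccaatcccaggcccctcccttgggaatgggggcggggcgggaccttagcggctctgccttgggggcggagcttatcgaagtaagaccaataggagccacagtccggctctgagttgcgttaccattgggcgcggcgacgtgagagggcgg

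Of the genes shown, the box of Cnn2 begins 56 bases, that of Myl9 161 bases and that of Vcl 227 bases before the window's start site. Myl9 was at 12.25 on each MEF array and at 5.33, 5.04 and 4.98 on the NPC arrays. Cnn2, which encodes a calponin, was at 12.36 and 12.38 in MEF and 7.56, 6.18 and 5.91 in NPC (56.5-fold), and Vcl, which encodes the focal adhesion protein vinculin, was at 12.23 on each MEF array and 9.96, 8.99 and 8.89 in NPC (7.74-fold). On NPC 1, Cnn2 and Vcl were higher than on the other NPC arrays. Myl6, an essential myosin light chain whose window on chromosome 10 also holds a box, differed by 0.84 and was not called (1.65 as deposited). The match is a description of the letters and says nothing of binding.

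Membrane and cytoskeletal genes of fibroblasts followed the same direction. Of 20 fibroblast surface genes 16 were higher in MEF, of 9 caveola genes 8, and of 18 S100 and annexin genes 15. Cav1, the coat protein of caveolae, was at 12.09 and 12.08 in MEF and 4.68 to 5.51 in NPC (122-fold). Pdgfrb, the PDGF receptor of mesenchymal cells, was at 10.64 and 10.63 in MEF and 4.01 to 4.07 in NPC, at the floor on every NPC array (97.5-fold). All 8 annexins, calcium-dependent membrane binding proteins, were higher, with Anxa1 at 13.18 and 13.11 against 6.24 to 6.39. S100a6 was 325-fold higher, and S100b, a glial member, was 3.43-fold lower, a call lost with a pseudocount of 64 (-0.93).

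Intermediate filaments and lamins were mixed, with 6 of 19 higher and 3 lower. Vim, the intermediate filament shared by mesenchymal and radial glial cells, was at 13.47 on each MEF array and at 13.09 to 13.22 in NPC, and was not called. Lmna, which encodes the A-type lamins of stiff tissues, was at 11.42 and 11.36 in MEF and 5.64, 6.66 and 6.84 in NPC, 32.2-fold higher. Ina, a neuronal filament, was 7.39-fold lower in MEF. Krt19 and Krt18, keratins of simple epithelia, were 10.6-fold and 5.21-fold higher in MEF at modest levels, below 8 on each array.

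**Figure D3:**
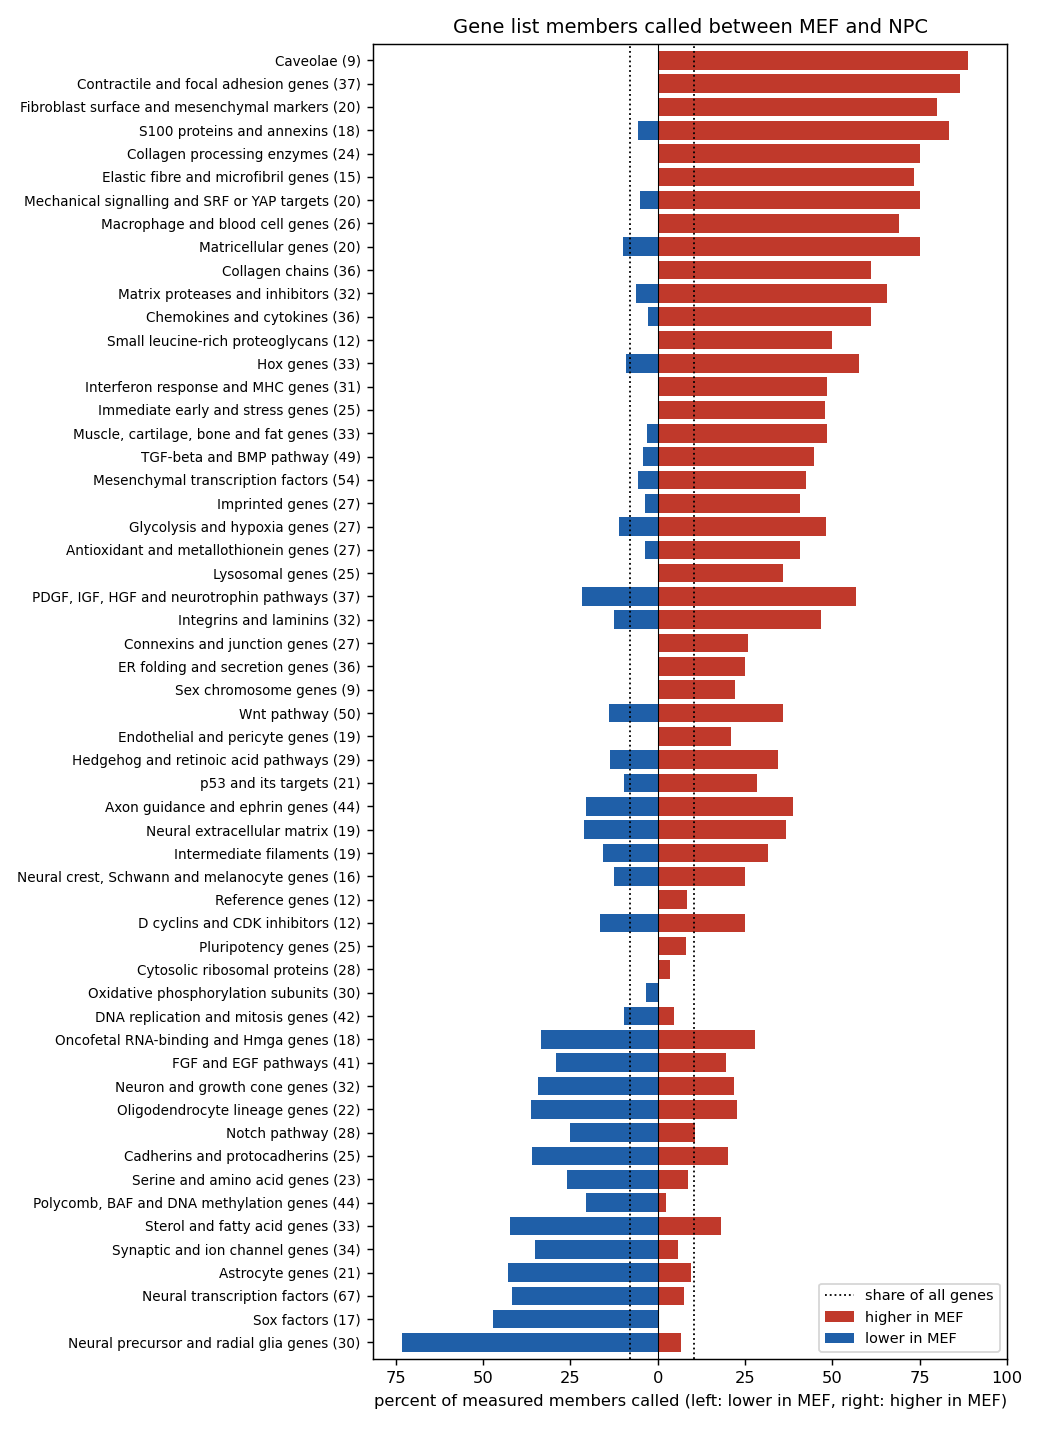
Percent of the measured members of each gene list (number in brackets) that were called higher in MEF (red, right) and lower in MEF (blue, left); dotted lines mark the shares of all genes, 10.5% higher and 7.95% lower. Caveola, contractile and fibroblast surface lists are at the top and neural precursor genes and Sox factors at the bottom.

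Of 30 genes of the neural precursor state 22 were lower in MEF and 2 higher. At the deposited scaling 14 were lower and 4 higher. Sox2 was at 5.56 and 5.51 in MEF and 11.61, 10.87 and 10.72 in NPC, 46.3-fold lower. Fabp7, a lipid carrier of radial glia, stood at 6.31 and 6.27 against 13.18, 12.72 and 12.58, and Slc1a3, the glial glutamate transporter, was 28.5-fold lower. The 2 members higher in MEF were Vcam1, an adhesion molecule also made by stromal cells (23.2-fold), and Mdk, a secreted growth factor (18.4-fold). Cd24a, a surface glycoprotein used to sort neural cells, did not differ by the rule, at 11.32 and 11.39 against 11.20 to 11.60.

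Oligodendrocyte genes were mixed. Of 11 oligodendrocyte precursor genes 6 were lower in MEF and 2 higher. Olig2 was 142-fold lower in MEF. Nkx2-2, a ventral homeobox factor of the lineage, was at 4.12 and 4.04 in MEF, 6.56 on NPC 1 and 8.71 and 8.89 on NPC 2 and NPC 3. The exceptions were the PDGF receptor gene Pdgfra, at 9.06 and 8.86 in MEF and 5.16 to 5.32 in NPC (12.9-fold higher), and the NG2 proteoglycan gene Cspg4 (5.44-fold higher), both also made by mesenchymal cells. Sox10, the later lineage factor, was at 5.13 and 5.48 against 5.29 to 5.47, and the myelin genes Mog and Mag were at 4.44 or below on all MEF and NPC arrays. Of 11 myelination genes 3 were higher in MEF and 2 lower. The myelin gene Mbp, with the greatest gain of the 3 (1.48), was at 5.87 and 6.08 in MEF and 4.13 to 5.13 in NPC. Its call was lost with a pseudocount of 64 (0.64), with averaged probe sets (0.18) and without probe sets of shared sequence (-0.28). The 2 lower were Ugt8a, a myelin lipid enzyme, at 4.30 and 4.52 in MEF and 5.65, 7.13 and 7.17 in NPC, and Cnp, a myelin-associated enzyme, at 7.66 and 7.53 against 9.32 to 9.78, which was not called without probe sets of shared sequence (-0.71). Of 21 astrocyte genes 9 were lower and 2 higher. Mlc1, a membrane protein of astrocyte endfeet, was 36.9-fold lower, while Gfap and Aqp4, which mark mature astrocytes, were at or below 5.33 on all 5 arrays. Gja1, the gap junction gene shared by astrocytes and fibroblasts, was at 11.70 and 11.69 in MEF, 10.15 on NPC 1 and 7.43 and 7.30 on NPC 2 and NPC 3.

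Neuronal genes did not run one way. Of 32 neuron and growth cone genes 7 were higher in MEF and 11 lower. Map2, a microtubule protein of dendrites, was at 7.48 and 7.51 in MEF and 10.56 to 11.19 in NPC (9.82-fold lower). Stmn2, a growth cone phosphoprotein, went the other way, at 8.93 and 8.86 against 4.15 to 4.60 (22.8-fold higher), and Dpysl3, an axon growth protein, was 5.99-fold higher. The synaptic vesicle gene Snap25 was near the floor everywhere. The neuron marker Tubb3 was higher in MEF, at 7.56 and 7.51 against 6.06 to 6.27, but not called with a pseudocount of 64 (0.96). The neuron marker Rbfox3 was lower (-1.04), at 5.01 and 4.27 against 5.38 to 6.05. Among other alternatives, its call was lost as deposited (-0.79), with averaged probe sets (-0.55) and without NPC 1 (-0.86). Dcx, a marker of newborn neurons, was at 4.06 on each MEF array, 4.46 on NPC 1 and 6.58 and 6.79 on NPC 2 and NPC 3; its call ended without MEF 1 (-1.84), MEF 2 (-1.83), NPC 2 (-1.59), NPC 3 (-1.48), ES 1 (-1.89) or ES 3 (-1.92), with a pseudocount of 64 (-0.86), averaged probe sets (-1.06), the replicate block (-1.62) or MEF and NPC fitted alone. Of 34 receptor, channel and synaptic genes 12 were lower and 2 higher, including 7 of 14 transmitter receptors. Grm5, a metabotropic glutamate receptor, was at 4.09 and 4.03 in MEF and 8.49 to 8.90 in NPC, and Gria4, an AMPA receptor subunit, at 4.65 and 4.48 against 8.99 to 9.12.

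Transcription factors separated the groups in both directions. None of 17 Sox factors was higher in MEF and 8 were lower, among them Sox3 (14.7-fold), Sox6 (11.1-fold), Sox5 (7.24-fold) and Sox9 (5.04-fold), the last of which also serves cartilage. Sox4, a factor of many progenitors, was high in both, at 11.77 and 11.76 against 12.23 to 12.33. Of 67 neural factors 28 were lower and 5 higher, and at the deposited scaling 21 and 14. The zinc finger gene Sall3 was at 4.13 and 4.09 in MEF and 8.88 to 9.32 in NPC (32.4-fold lower), and Pax6, the eye and forebrain factor, was 7.11-fold lower. Lhx9, a LIM homeobox gene of limb and gonad as well as brain, was 14.4-fold higher in MEF, at 8.31 and 8.27 against 4.35 to 4.49.

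Of 54 mesenchymal factors 23 were higher in MEF and 3 lower, and at the deposited scaling 34 and 1. Prrx1, the limb and craniofacial mesenchyme homeobox gene, was at 11.01 and 10.96 in MEF and 5.73 to 6.28 in NPC (32.9-fold). Snai2, a repressor of epithelial genes, was 37.7-fold, Foxc2 24.3-fold and Twist2 18.5-fold higher, with Snai2 at 4.07, 6.42 and 5.63 on NPC 1 to NPC 3. Zeb1, which belongs to the same repressor class, was the other way round, at 9.69 and 9.72 in MEF and 12.21, 11.40 and 11.55 in NPC, 4.04-fold lower in MEF. Tbx18, a T-box factor of mesenchyme, was at 7.77 and 7.92 in MEF, close to NPC 2 and NPC 3 (8.03 and 7.92) and above NPC 1 (6.66), and was called only as deposited (1.16).

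Of 33 Hox genes, whose expression records position from head to tail, 19 were higher in MEF and 3 lower. By position in the cluster, 12 of 16 genes with paralogue numbers 8 to 13 were higher and none lower (median 2.18), against 7 higher and 3 lower of 17 with numbers 1 to 7 (median 0.48). Hoxa10 was at 7.95 and 8.09 in MEF and 4.09 to 4.59 in NPC (12.5-fold), Hoxa11 was 8.47-fold higher, and Hoxd13, the most posterior HoxD gene, stood at 8.55 on each MEF array and at 4.38, 5.63 and 5.30 in NPC (10.9-fold). Hoxb2, an anterior gene, was also higher, by 10.5-fold. The 3 genes lower in MEF were neighbours in the HoxA cluster, Hoxa3, Hoxa4 and Hoxa5. Hoxa5 was at 6.88 and 6.94 in MEF and 8.67, 8.63 and 8.50 in NPC (3.23-fold lower), a call that ended at the deposited scaling (-0.87). Hoxa4 was also 3.23-fold lower, a call lost with a pseudocount of 64 (-0.84). Hoxa3 was 2.89-fold lower on a probe set with shared sequence and 0.54 higher on the others, so its direction is uncertain. Hoxc4 showed the spread among NPC, at 4.09 on NPC 1, 7.48 and 7.39 on NPC 2 and NPC 3, and 6.54 and 6.69 in MEF.

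**Figure D4:**
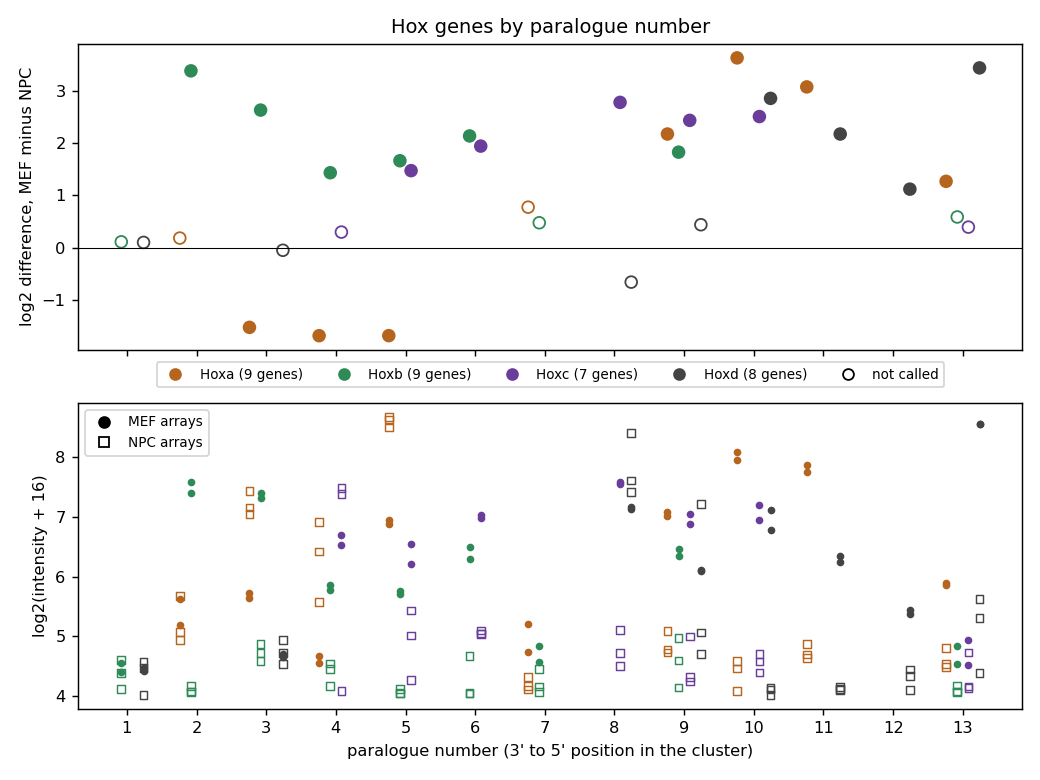
Log2 difference between MEF and NPC (top) and log2 intensity on each MEF array (filled circles) and NPC array (open squares, bottom) of 33 Hox genes by paralogue number, coloured by cluster; open circles in the top panel were not called. Hoxa3, Hoxa4 and Hoxa5 lie below 0 and the called genes from number 8 on lie above it.

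Ligands of the TGF-beta family were among the signalling genes higher in MEF. Of 49 TGF-beta and BMP pathway genes 22 were higher and 2 lower. Inhba, which encodes activin A, was at 11.07 and 10.88 in MEF and 4.38 to 5.23 in NPC (70.9-fold), Tgfb3 was 37.8-fold and Tgfb1 22.5-fold higher. Smad5, a transducer of BMP signals, was 3.77-fold lower, at 8.08 and 8.04 against 9.79 to 10.33. The shared transducer Smad4 was level, at 10.57 and 10.58 in MEF and 10.57 to 10.61 in NPC.

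In the Wnt pathway 18 of 50 genes were higher in MEF and 7 lower. Ccn4, a matricellular gene first found as Wnt-induced, was at 11.30 and 11.41 in MEF and 4.14 to 4.27 in NPC (143-fold). The secreted amplifiers Rspo2 and Rspo3 were 12.6-fold and 9.93-fold higher, and the secreted modulator Dkk3 was 20.4-fold higher. The feedback gene Axin2, a widely used readout of beta-catenin signalling, was at 5.46 and 5.55 in MEF and 7.43, 8.10 and 8.04 in NPC, 5.11-fold lower in MEF. Ctnnb1, which encodes beta-catenin, was high in both groups, at 12.30 and 12.32 against 12.13 to 12.38, and was not called.

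Most genes of the FGF target and feedback list, called feedback genes here, were higher in NPC on the quantile scale. Of 12 feedback genes 8 were lower in MEF and 2 higher. With median centring or the deposited scaling 4 were lower and 2 higher. Etv5, an ETS factor induced by FGF, was at 7.84 and 7.96 in MEF and 11.68, 11.58 and 11.63 in NPC (-3.73 ± 0.10 SE, 13.3-fold lower, limma adjusted p = 1.57e-08). Its mean in ES cells was 10.82, between the groups. The Sprouty genes Spry4 and Spry2 were 8.27-fold and 6.75-fold lower in MEF, with Spry2 at 7.85 and 8.05 against 10.64 to 10.81. The 2 higher in MEF were Errfi1, an inhibitor of the EGF receptor (10.39 and 10.33 against 6.84 to 7.42), and Dusp5, a nuclear ERK phosphatase, which was at 4.49, 6.66 and 7.11 in NPC and lost its call without MEF 1 (2.64). Ligands split by member. Fgf1, the broadly acting acidic FGF, was at 4.07 and 5.06 in MEF and 8.62 to 9.16 in NPC (19.6-fold lower), and Fgf7, a mesenchymal factor that acts on epithelia, was at 9.18 and 9.03 against 4.64 to 5.07, higher in MEF by 4.25 log2 units. The EGF receptor ligands Hbegf and Ereg were 15.4-fold and 14.5-fold higher in MEF. The receptor gene Egfr itself was 3.47-fold lower, at 8.43 and 8.58 against 10.76, 9.97 and 10.17, and was no longer called when its probe sets were averaged (-0.61) or at the deposited scaling (-0.88).

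Of 10 insulin-like growth factor genes 6 were higher in MEF and 2 lower. Igf2, a fetal growth factor, was at 12.60 and 12.64 in MEF and 4.92, 5.81 and 5.35 in NPC (153-fold higher in MEF). The binding protein genes Igfbp2 and Igfbp3 were 17.2-fold and 23.2-fold lower in MEF, with Igfbp3 at 6.56 and 6.75 against 11.04 to 11.44, while Igfbp7 was 96.4-fold higher. The receptor gene Igf1r was at 9.64 and 9.53 against 9.26 to 9.65 and was called only as deposited (1.10). Kitl, the ligand of the Kit receptor, was 4.90-fold lower in MEF. Over the whole PDGF, IGF, HGF, VEGF and neurotrophin list 21 of 37 genes were higher and 8 lower.

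Of 8 Notch ligands 3 were lower in MEF and 1 higher. The higher one, Dlk1 (11.2-fold), was not called without probe sets of shared sequence (0.50). Dll1 was at 5.12 and 4.96 in MEF and 7.67 to 7.73 in NPC (6.30-fold lower), whereas Jag1 was high in both, at 9.82 and 9.99 against 9.63 to 10.18. Of 28 Notch genes 7 were lower and 3 higher, a balance that turned after median centring (6 and 8) and in the values as deposited (4 and 11). The effector Hes1 was not called (0.64), but was after median centring (1.20) and as deposited (1.55), and Hes6, a Hes relative of neural progenitors, was 7.41-fold lower. Of 13 hedgehog genes 4 were lower and 1 higher, against 2 and 3 at the deposited scaling, with the co-receptor Gas1 3.73-fold lower and the activator Gli2 3.07-fold higher.

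Of 16 retinoic acid genes 9 were higher in MEF and none lower. Crabp1, a cytoplasmic retinoic acid binding protein, was at 11.34 and 11.26 in MEF and 4.34 to 4.63 in NPC (114-fold). Aldh1a2, the synthesising enzyme, was 11.2-fold higher, and the receptor Rarg 5.58-fold. Axon guidance molecules, which also steer mesenchymal cells, numbered 44, of which 17 were higher and 9 lower. The repellent Slit2 was at 10.52 and 10.65 in MEF and 4.67 to 4.78 in NPC (58.5-fold higher), and the netrin receptor Unc5b was higher by 4.17 log2 units. Ntn1, the netrin itself, was at 6.14 or below in MEF and at 9.11 to 9.23 in NPC (8.58-fold lower), and the semaphorin Sema6d was 22.8-fold lower.

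Chemokine and innate immune genes were higher in MEF. Of 36 chemokine, cytokine and receptor genes 22 were higher and 1 lower, and of 31 interferon and MHC genes 15 were higher and none lower. Cxcl12, the stromal chemokine, was at 10.32 and 10.31 in MEF and 5.09 to 5.46 in NPC (33.3-fold), Ccl2, which attracts monocytes, was 20.7-fold and Osmr, the oncostatin M receptor, 45.3-fold higher. Ifitm3, a membrane protein that restricts virus entry, was at 12.17 and 12.18 in MEF and 7.32 to 7.62 in NPC and at 12.04 in ES cells, while its relative Ifitm2 was high in all (11.57 and 11.45 against 11.07 to 11.55). Macrophage genes moved with these lists: 17 of 20 were higher in MEF, and the summed intensity of the 20 ran from 3357 to 3401 on the MEF arrays, 166 to 172 on the NPC arrays and 723 to 771 on the ES arrays. Of 5 macrophage markers 4 were called higher in MEF. Tyrobp was at 7.03 and 7.04 in MEF and 4.10 to 5.06 in NPC, and Lyz2 at 8.94 and 9.03 against 4.24 to 5.13. Cd68 was at 6.78 and 6.86 against 4.60 to 5.17, and at 8.13 on average in ES cells. Adgre1 was at 6.50 and 6.48 against 4.90 to 5.08, a call lost with a pseudocount of 64 (0.79). C1qb, a gene of the list outside these 5, was at 7.86 and 7.79 against 4.05 to 4.64. Csf1r, the receptor of the macrophage growth factor, was not called from its brightest probe set (0.81), but was with averaged probe sets (1.79), after median centring (1.14) and as deposited (1.49). Of 6 other blood cell genes 1 was higher and none lower, 16.7% called against 18.5% of all genes. Spi1, a myeloid factor, was at 5.37 and 5.64 against 5.15 to 5.25. The part of such cells in the immune results was not tested.

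Markers of further cell types were looked at in the same way. The endothelial markers Pecam1, Cdh5 and Tek were at 4.93 or below on all 5 arrays and none was called. Of 13 endothelial genes 2 were higher in MEF and none lower, 15.4% called against 18.5% of all genes. The summed intensity of the 13 was 440 to 555 on the MEF arrays and 92 to 188 on the NPC arrays. Flt1, a VEGF receptor gene, was nevertheless at 8.12 and 8.46 in MEF and 4.31 to 5.01 in NPC (12.2-fold higher). Of 14 striated muscle genes 9 were higher in MEF, with a summed intensity of 1297 to 1340 on the MEF arrays and 110 to 150 on the NPC arrays. Acta1, skeletal actin, was at 9.09 and 8.94 in MEF and 4.74 to 5.46 in NPC, and Myog, a muscle differentiation factor, at 6.13 and 6.09 against 4.47 to 4.73 and higher in MEF, but not called with a pseudocount of 64 (0.70). Myod1 was at 5.56 and 5.22 against 4.11 to 5.16 (0.69) and was called only as deposited. The summed intensity of 6 fat cell genes was 577 and 578 in MEF and 80 to 173 in NPC, with Lpl, lipoprotein lipase, 11.6-fold higher. None of 4 bone genes was called. The part of endothelial, muscle or fat cells in the results was not tested.

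Cell cycle genes differed little as a class. Of 42 replication and mitosis genes 2 were higher in MEF and 4 lower, 14.3% in all against 18.5% of all genes. At the deposited scaling the counts were 13 higher and none lower, and when scaled to a trimmed mean 2 and 7. Pcna, the replication clamp, was at 11.92 and 11.88 in MEF and 12.76 to 12.91 in NPC (-0.94) and was called only when scaled to a trimmed mean (-1.10). Among D cyclins and their kinases, Ccnd2 was high in both groups (11.95 and 12.03 against 12.55, 11.53 and 11.65), and Cdk6 was at 9.18 and 9.08 in MEF and 5.87, 6.98 and 7.47 in NPC (5.12-fold higher). Cdkn2b, the inhibitor induced by TGF-beta, was at 9.82 and 9.78 in MEF and 7.02, 4.57 and 5.33 in NPC (17.9-fold higher). Its neighbour Cdkn2a went the other way, at 5.46 and 5.65 in MEF, 6.09 on NPC 1 and 8.60 and 8.72 on NPC 2 and NPC 3. The Cdkn2a call (-2.25) ended without NPC 2 (-1.86), NPC 3 (-1.80), MEF 1 (-2.11) or MEF 2 (-2.30) and with MEF and NPC fitted alone.

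Targets of p53, the DNA damage response factor, set NPC 1 apart from the other NPC arrays. Of 21 genes 6 were higher in MEF and 2 lower, and without NPC 1 the counts were 10 and 2. At the deposited scaling they were 12 and 1. On NPC 1, 10 of the 21 (47.6%) were higher by at least 1 log2 unit than on both other NPC arrays and none was lower, against 1.92% of all genes. Cdkn1a encodes the p53-induced CDK inhibitor p21 and was picked here after its values were seen. It stood at 11.50 on NPC 1, 6.38 and 6.65 on NPC 2 and NPC 3, 10.23 and 10.12 on the MEF arrays and 9.34 on average in ES cells, and was not called (1.99, or 3.68 without NPC 1). Phlda3, an inhibitor of Akt, was at 8.84, 5.92 and 6.03 on NPC 1 to NPC 3 and at 10.37 and 10.36 in MEF (10.8-fold higher). Pmaip1, which encodes the death protein Noxa, was at 6.25, 4.29 and 4.32 in NPC and 8.88 and 8.79 in MEF (14.7-fold higher). NPC 1 thus lay nearer to MEF than NPC 2 and NPC 3 for each of these genes. Sesn3, a stress sensor, was lower in MEF by 3.02 and even among the NPC arrays, at 9.48 to 9.71.

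Sterol synthesis genes were lower in MEF. Of 13 genes 11 were lower and none higher (median -1.41). The count was 11 when scaled to a trimmed mean, 4 after median centring and 3 in the values as deposited. Dhcr7, the last enzyme of cholesterol synthesis, was at 7.27 and 7.01 in MEF and 9.12, 10.18 and 10.04 in NPC (6.21-fold lower, limma adjusted p = 6.63e-05), and Nsdhl and Fdft1, enzymes earlier in the pathway, were 4.12-fold and 4.02-fold lower. These 3 genes were called in every alternative that kept the threshold. NPC 1 was the lowest NPC array for all 13 genes, and the difference was as large without it, with 12 of 13 called lower. Of 10 fatty acid synthesis genes 2 were lower, 20% called against 18.5% of all genes. Scd2, a desaturase, was high in both groups (12.74 and 12.73 against 12.94 to 13.01). The fatty acid binding proteins differed by member, with Fabp7 higher in NPC and Fabp5 high in both. Fabp4, the fat cell member, was higher in MEF (7.36 and 7.31 against 4.13 to 4.49). Of its 3 other probe sets 1 pointed the same way. Fabp3 was also higher in MEF (6.78 and 6.89 against 4.84 to 5.27). The Fabp3 call was lost with a pseudocount of 64 (0.97) and with averaged probe sets (0.87).

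**Figure D5:**
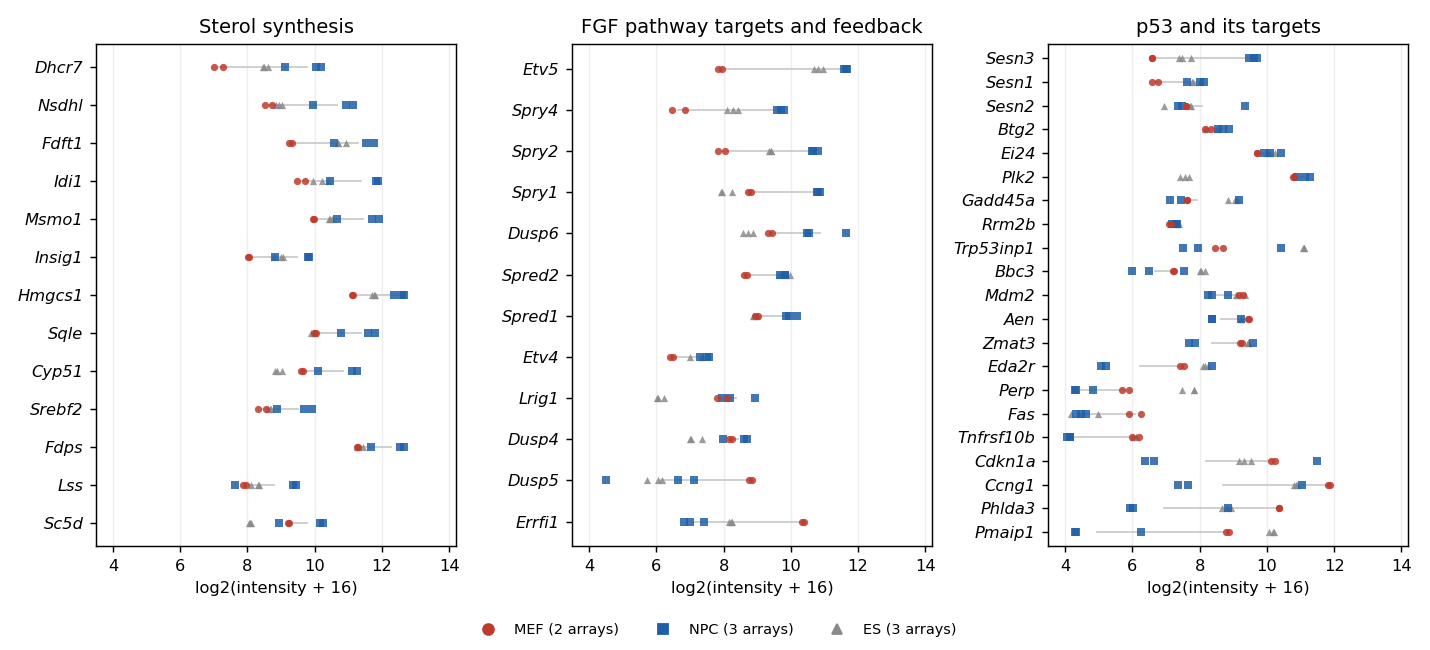
Log2 intensity on every array (x axis) of 13 sterol synthesis genes, 12 FGF feedback genes and 21 p53 genes, ordered by the difference between MEF and NPC; red circles are MEF arrays, blue squares NPC arrays and grey triangles ES arrays. For Cdkn1a the NPC arrays lie at 6.38, 6.65 and 11.50, on both sides of the MEF arrays.

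Glycolysis changed by isoform. Of 27 glycolysis and hypoxia genes 13 were higher in MEF and 3 lower, and at the deposited scaling 21 and 1. Aldoc, the brain aldolase, was at 4.90 and 4.25 in MEF and 12.27, 11.92 and 11.87 in NPC (174-fold lower), against 12.27 and 12.23 for the ubiquitous Aldoa in MEF and 10.74 to 11.16 in NPC. The phosphofructokinase Pfkp was higher by 3.47 log2 units and Pfkl was 5.54-fold higher, and Slc16a3, which exports lactate, was at 8.91 and 8.81 in MEF and 4.26 to 4.83 in NPC (20.2-fold). Pdk1, which holds pyruvate back from the mitochondrion, was 7.49-fold higher. Of 30 respiratory chain subunits 1 was called lower, 3.33% against 18.5% of all genes, and with median centring or the deposited scaling none was lower and 1 was higher. Amino acid genes gave 2 higher and 6 lower of 23, against 4 and 2 at the deposited scaling, and Gldc, the glycine cleavage enzyme, was at 4.23 and 4.55 in MEF and 7.92 to 8.45 in NPC (14.5-fold lower).

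Some genes of the secretory path were higher in MEF. Sec24d and Sec23a, coat proteins of vesicles that carry procollagen, were 9.77-fold and 3.71-fold higher in MEF, and Creb3l1, a factor that drives collagen secretion genes, was at 9.41 and 9.25 against 5.55 to 5.68 (13.2-fold). Of 36 folding and secretion genes in all 9 were higher and none lower, 25% called against 18.5% of all genes. The count was 5 without NPC 1, 6 when scaled to a trimmed mean, 16 after median centring and 27 in the values as deposited. NPC 1 was the lowest NPC array for all 14 folding genes; Hspa5, the main chaperone, was at 11.03 on NPC 1, 12.58 and 12.73 on NPC 2 and NPC 3 and 12.86 and 12.82 in MEF, and was called only as deposited (1.26). Of 25 lysosomal genes 9 were higher and none lower, and at the deposited scaling 14. Ctsz, a carboxypeptidase, was at 11.50 and 11.47 in MEF, 7.23 on NPC 1 and 4.11 and 4.06 on NPC 2 and NPC 3. Of 27 antioxidant genes 11 were higher and 1 lower, against 18 and 1 at the deposited scaling, with Gpx7, a peroxidase of the secretory path, 30.7-fold higher and Mgst1 3.83-fold lower.

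Chromatin genes depended on the scaling. Of 44 Polycomb, BAF and DNA methylation genes 9 were lower in MEF and 1 higher, 22.7% called against 18.5% of all genes. At the deposited scaling 3 were lower and 8 higher. Tet1, a methylcytosine oxidase high in ES cells (11.32), was at 5.26 and 5.19 in MEF and 7.15 to 7.31 in NPC (4.00-fold lower), and the BAF subunit Dpf3 was 4.37-fold lower. The catalytic BAF subunit Smarca4 was level, at 10.22 and 10.32 against 10.41 to 10.61.

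Of 27 imprinted genes, which are expressed from the copy of a single parent, 11 were higher in MEF and 1 lower. Besides Igf2, Grb10, a growth factor receptor adaptor, was at 11.94 and 11.89 in MEF, 7.46 on NPC 1 and 4.65 and 4.74 on NPC 2 and NPC 3 (78.5-fold). Meg3, a long noncoding RNA, was at 9.82 and 9.93 in MEF and 4.46 to 5.01 in NPC and at 10.90 in ES cells (34.3-fold higher). Nnat, a membrane protein of neural cells, was the member lower in MEF, by 3.78-fold. Fetal RNA-binding genes were divided: Igf2bp1, which binds Igf2 mRNA, was 16.6-fold and Hmga2, a chromatin protein of fetal cells, 8.34-fold higher, whereas the neuronal splicing factors Nova1 and Nova2 were 6.96-fold and 6.88-fold lower.

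Some immediate early and stress genes were higher in MEF. Of 25 such genes 12 were higher and none lower, and at the deposited scaling 20. The AP-1 members Fosl1 and Fosl2 were 26.6-fold and 12.1-fold higher, with Fosl1 at 8.87 and 8.85 in MEF and 4.07 to 4.20 in NPC. Egr1, the classical immediate early gene, was at 10.12 and 10.18 in MEF, 11.66 on NPC 1 and 9.05 and 8.78 on NPC 2 and NPC 3, and was not called (0.32), but was without NPC 1 (1.24) and with array weights (1.07). Myc was also not called, at 9.72 and 9.63 against 9.98 to 10.40. Hspb1, a small heat shock protein that binds actin, was at 11.45 and 11.40 in MEF and 5.22 to 5.54 in NPC (67.3-fold), and at 12.24 in ES cells.

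Genes often used as references differed little on the quantile scale. Of 12 reference genes 1 was called, Gusb, a lysosomal enzyme (3.66), and of 28 ribosomal protein genes 1, Rpl39l, a paralogue of Rpl39 (4.45). The shares called were 8.33% and 3.57%, against 18.5% of all genes. The median difference of the ribosomal list was 0.01. Without normalization 5 of the 12 reference genes were called higher. Rpl13a was at 13.37 and 13.34 in MEF and 13.30 to 13.38 in NPC, and Rps14 at 13.28 and 13.26 against 13.22 to 13.29.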

How the data were processed

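RNA had been hybridised to Affymetrix mouse arrays. The values the authors deposited are linear probe set intensity, 1 per array; the submitters' processing notes list GCOS 1.4, whose algorithm and scaling are not given in the sources used here. No detection calls were used. Left out were 64 control probe sets, 932 listed with several genes and 9160 with none. Intensities were taken as log2(intensity + 16) and quantile normalized. All 8 arrays were fitted in R 4.3.3 with limma 3.58.1 (lmFit, eBayes with a variance trend), with Benjamini-Hochberg adjustment over 18193 genes. The number of arrays limits the precision, and depth has no counterpart here.

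The members and the 56 gene lists (1579 members, 1475 measured) were chosen with earlier results of these data known; lists are described by counts and medians. Named are the 15 highest and 15 lowest called differences whose arrays do not overlap, the cell type markers, and from each list up to 4 called members in each direction, up to 4 called against its direction and up to 2 of high level that were not called, plus the 5 most even genes of high level. Exceptions are the CArG box genes and genes said to be chosen after their values were seen; Aldoa is also outside the rule. Promoter sequences are RefSeq's (GRCm38.p6). Alternatives were other scalings, pseudocounts of 1 and 64, the dimmest 25% of genes left out, other probe set rules, no variance trend, array weights, other thresholds, a fit of MEF and NPC alone, a replicate block and leaving out each array.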

Additional observations from a re-analysis of the deposited data

How the results depend on the processing

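The number of called genes and its split depended on the scaling and the threshold. At the deposited scaling 5095 genes were called, 4459 higher in MEF and 636 lower. With a pseudocount of 64 the counts were 2103, 1211 and 892, with a minimum log2 difference of 2 they were 1247, 862 and 385, and with no minimum 7145, 3517 and 3628. Leaving out each array in turn gave 3096 to 3599 called genes, 1772 to 2005 higher and 1281 to 1594 lower; without NPC 1, 3170 of the 3359 genes were called in the same direction. With the replicate number as a block 3357 genes were called (1912 higher and 1445 lower), and 3230 were shared. The numbers were not taken to pair arrays: deviations of same-numbered arrays of different groups correlated at -0.020 to 0.023. Without probe sets of shared sequence Hoxa3 stood at 0.54, Mbp at -0.28 and Plagl1 at -0.046, against -1.53, 1.48 and 5.95 from their brightest probe sets. Of 317 called genes among the 440 that the naming rule takes, 237 were called in every alternative that kept the threshold. Of 217 such genes read by more than 1 probe set, the others pointed the same way in 195. With 2 MEF arrays, leaving one out leaves a lone array that is assumed to vary like the other groups.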

Other observations

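The NPC arrays differed among themselves in genes outside the contrasts above, all chosen after their values were seen. Mest, an imprinted gene of the hydrolase fold family, was at 4.99 on NPC 1, 11.92 and 12.07 on NPC 2 and NPC 3 and 9.34 and 9.31 on the MEF arrays, so that its difference of -0.34 was not called and became -2.68 without NPC 1. Ndn, another imprinted gene, was at 10.24 on NPC 1, 4.28 and 4.38 on NPC 2 and NPC 3 and 10.86 and 10.84 on the MEF arrays. Foxd1, a forkhead factor of kidney stroma and retina, was at 4.32 on NPC 1 and 7.56 and 7.25 on NPC 2 and NPC 3. Of 23 serine and amino acid genes, NPC 1 was the highest NPC array for 19, and for 6 (26.1%) by at least 1 log2 unit.

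The lists not yet described follow. Of 27 connexin and junction genes 7 were higher in MEF and none lower, of 16 neural crest, Schwann and melanocyte genes 4 were higher and 2 lower, of 25 pluripotency genes 2 were higher and none lower, and of 9 sex chromosome genes 2 were higher and none lower. The shares called were 25.9%, 37.5%, 8% and 22.2% in this order, against 18.5% of all genes. In the values as deposited 8 of the neural crest genes were higher and 1 lower, 11 of the junction genes were higher and 5 of the sex chromosome genes were higher.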
